A study of Mus musculus with 6 samples.

Results

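The 44 mitosis and kinetochore genes encode the proteins that condense chromosomes, attach them to the spindle, check that attachment, separate the sister chromatids and divide the cell. They were chosen by name from known function, as mitotic cyclins and kinases, spindle checkpoint and kinetochore subunits, mitotic kinesins, condensin and cytokinesis factors, out of 21883 protein-coding genes. The choice was made with earlier results of these data known. All 44 were found, 41 of them by Entrez identifier in the deposited peak lists and the other 3 (Ccnb1, Mad2l1 and Hjurp) by symbol in a RefSeq table. The measurement was chromatin immunoprecipitation sequencing (ChIP-seq) of H3K4me3, trimethylated lysine of histone H3, a mark found at active promoters.

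The cells were natural killer (NK) cells, cytotoxic lymphocytes, from the spleens of Tcf7-/- mice (KO, strain B6.129 Tcf7Tm1Cle) and Tcf7+/+ mice (WT, strain B6). Tcf7 encodes Tcf1, a DNA-binding factor of the Tcf/Lef family. IL-2, which activates NK cells and makes them divide, was given to both at 500 ng/mL for the 5 days of culture. Of 6 libraries (H3K4me3, Tcf1 and input, each from both genotypes), the peak lists of the 4 made with an antibody were used, and input was not analysed here. With 1 library per group there is no replicate check, so no p-value is given, and strain and genotype cannot be told apart. The number of mice behind each library and their ages are not given in the sources used here.

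In the KO H3K4me3 list there were 11074 peaks with 7507763 tags (reads counted in peaks), and in the WT list 13771 peaks with 6635272 tags. Sequencing depth is unknown. At the median gene marked in both libraries, tags were 1.20-fold higher in KO than in WT (log2 ratio 0.26), and all ratios given here are centred on that median. A gene counted as marked when an H3K4me3 region, made by joining KO and WT peaks that overlap, lay within 1 kb of an annotated start. Of 10 NK cell markers all were marked in both genotypes, with 17776 tags in KO and 14774 in WT, and ratios from -1.20 (Klrd1) to 0.59 (Gzmb). Of 17 markers of T, B, myeloid and erythroid cells 12 had a known start, and of these Klf1 was marked in both, with 227 tags in KO and 264 in WT, and Cd3e and Cd3d in WT alone with 64 and 35 tags. At the far end of the gene, away from the known start, a peak was listed for Cd4 in WT alone (79 tags) and for Cd79a in both (1908 tags in KO, 1637 in WT). Near either end, the 6 T cell markers held 0 tags in KO and 290 in WT. By that same rule 9 of the 10 NK cell markers were marked in KO and 10 in WT, with 14540 and 11921 tags. The exception was Klrd1, with 0 tags in KO and 59 in WT near its ends. The Y-linked genes Ddx3y, Eif2s3y, Uty and Kdm5d were marked in KO alone with 48 to 116 tags. The libraries may thus differ in sex, which cannot be told apart from strain and genotype. The bearing of sex on the ratios below, that of the X-linked member Kif4 included, was not tested.

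Most genes of this set are silent in resting cells and are transcribed late in the cell cycle, in the G2 and M phases. Their promoters are known for a short element near the start, the cell cycle genes homology region (CHR), and for CCAAT boxes upstream of it. The CHR is bound by the DREAM complex, which represses these genes in resting cells, and by complexes of B-Myb and FoxM1 that activate them in dividing cells. The CCAAT box is bound by NF-Y.

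The promoters of 8 members are shown because they carry, or lack, these elements next to the marked start. Iqgap3, Cdk1, Plk1 and Top2a had the highest ratios among members in the promoter table, Cdc20, Ccnb2 and Ccnb1 are classic mitotic genes, and Anln had the lowest ratio of the set. Each stretch runs 5′ to 3′ from 150 bases before the start to 30 after, from RefSeq (GRCm38.p6). Capitals mark TTTGAA or TTCGAA (the CHR and a variant) and CCAAT, on either strand, so that TTCAAA and ATTGG are matches too.

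Iqgap3 (chr3:88081901-88082080, plus strand): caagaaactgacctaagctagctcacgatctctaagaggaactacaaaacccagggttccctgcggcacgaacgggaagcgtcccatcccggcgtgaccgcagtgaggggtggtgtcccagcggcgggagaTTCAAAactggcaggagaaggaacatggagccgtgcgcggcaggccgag
Cdk1 (chr10:69352883-69353062, minus strand): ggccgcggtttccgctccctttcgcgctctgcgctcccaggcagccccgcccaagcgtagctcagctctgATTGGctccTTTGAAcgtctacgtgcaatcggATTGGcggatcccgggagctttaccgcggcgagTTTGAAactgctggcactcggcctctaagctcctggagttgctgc
Plk1 (chr7:122159285-122159464, plus strand): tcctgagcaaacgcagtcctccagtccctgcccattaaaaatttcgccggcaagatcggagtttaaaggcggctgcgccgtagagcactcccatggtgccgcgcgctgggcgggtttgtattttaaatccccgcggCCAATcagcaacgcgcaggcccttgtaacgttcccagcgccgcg
Top2a (chr11:99024160-99024339, minus strand): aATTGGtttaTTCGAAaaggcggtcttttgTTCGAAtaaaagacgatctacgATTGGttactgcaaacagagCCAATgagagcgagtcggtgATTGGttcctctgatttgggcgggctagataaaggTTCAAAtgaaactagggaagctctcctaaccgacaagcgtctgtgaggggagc
Cdc20 (chr4:118437314-118437493, minus strand): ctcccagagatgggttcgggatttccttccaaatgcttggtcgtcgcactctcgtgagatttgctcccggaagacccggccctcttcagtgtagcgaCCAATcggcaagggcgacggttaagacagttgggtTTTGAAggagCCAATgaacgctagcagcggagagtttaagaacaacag
Ccnb2 (chr9:70421525-70421704, minus strand): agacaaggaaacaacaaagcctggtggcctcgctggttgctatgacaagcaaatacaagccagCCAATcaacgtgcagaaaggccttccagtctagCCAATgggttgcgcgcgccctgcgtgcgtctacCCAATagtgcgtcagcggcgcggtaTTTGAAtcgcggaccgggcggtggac
Ccnb1 (chr13:100786457-100786636, minus strand): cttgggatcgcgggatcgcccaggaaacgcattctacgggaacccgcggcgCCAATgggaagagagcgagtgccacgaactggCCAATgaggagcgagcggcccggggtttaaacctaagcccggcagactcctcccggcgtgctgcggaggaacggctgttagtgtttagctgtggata
Anln (chr9:22389177-22389356, minus strand): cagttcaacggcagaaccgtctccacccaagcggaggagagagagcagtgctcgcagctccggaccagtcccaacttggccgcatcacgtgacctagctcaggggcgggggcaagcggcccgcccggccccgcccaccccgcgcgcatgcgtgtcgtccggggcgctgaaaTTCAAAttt

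A CHR of either form was found in 29 of the 37 members in the promoter table (78.4%), against 17.6% of 21262 windows of protein-coding genes, each running from 250 bases before to 50 after a start. Among 8585 genes of the table marked by H3K4me3 in both genotypes, 16.8% held one. A CCAAT box was found in 28 of 37 members (75.7%), against 38.2% of all windows and 43.8% of the marked genes. Both elements stood together in 25 of 37 (67.6%), against 7.11% of windows and 7.48% of marked genes. The forms TTTGAA and TTCGAA do not overlap each other, but CCAAT and a CHR can overlap, as at Cdca8.

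The elements lay close to the start. In Cdk1 the nearer TTTGAA began 15 bases before the start, and CCAAT boxes began 48 and 80 bases before it. In Cdc20 the CHR began 18 bases before the start, and in Iqgap3, which had no CCAAT box in the window, 19 bases before it. That of Ccnb2 began at base 5 after the start, and that of Plk1 at base 31, just past the stretch printed. Top2a held 6 CCAAT boxes in its 300 bases. Ccnb1 held a pair of CCAAT boxes and no CHR of these letters in the window. Kif2c counts among the members with a CHR, but the table's start for it lay outside its H3K4me3 region. A match of letters is a description of the window and not a measured binding site.

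H3K4me3 was present at 43 of the 44 promoters in both genotypes, against 51.8% of 19999 genes with a known start, and all 43 carried more tags in KO than in WT. Before centring, KO held 1.29 to 2.35 times the tags of WT at these genes, with a median of 1.57. Over the 10274 genes marked in both, and holding 100 tags or more in either, 86.5% had more tags in KO before centring. After centring all 43 members lay above 0, against 50.2% of all genes. Their median was 0.39 on the log2 scale, a 1.31-fold difference, and they ranged from 0.10 to 0.97. The median of all genes was 0.00, with an SD of 0.29 across genes.

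Each ratio has a 95% counting interval, exact and binomial, which covers counting error only. This interval lay above 0 for 42 of the 43 members, against 19.2% of all genes. Past 1.5-fold (0.58 on the log2 scale) were 6 members, against 0.74% of all genes, and 0 members lay below the same fold downwards, against 4.78%. Past a lower limit of 0.32 lay 27 members, against 5.89% of all genes. By tags 35 members stood above 90% of all genes, and by tags per kb of peak 27 did. In KO the members had a median of 814 tags, above the 690 of all genes, and in WT a median of 490, under the 568 of all genes. In a bulk culture a larger share of dividing cells and more of the mark per cell cannot be told apart.

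**Figure D1:**
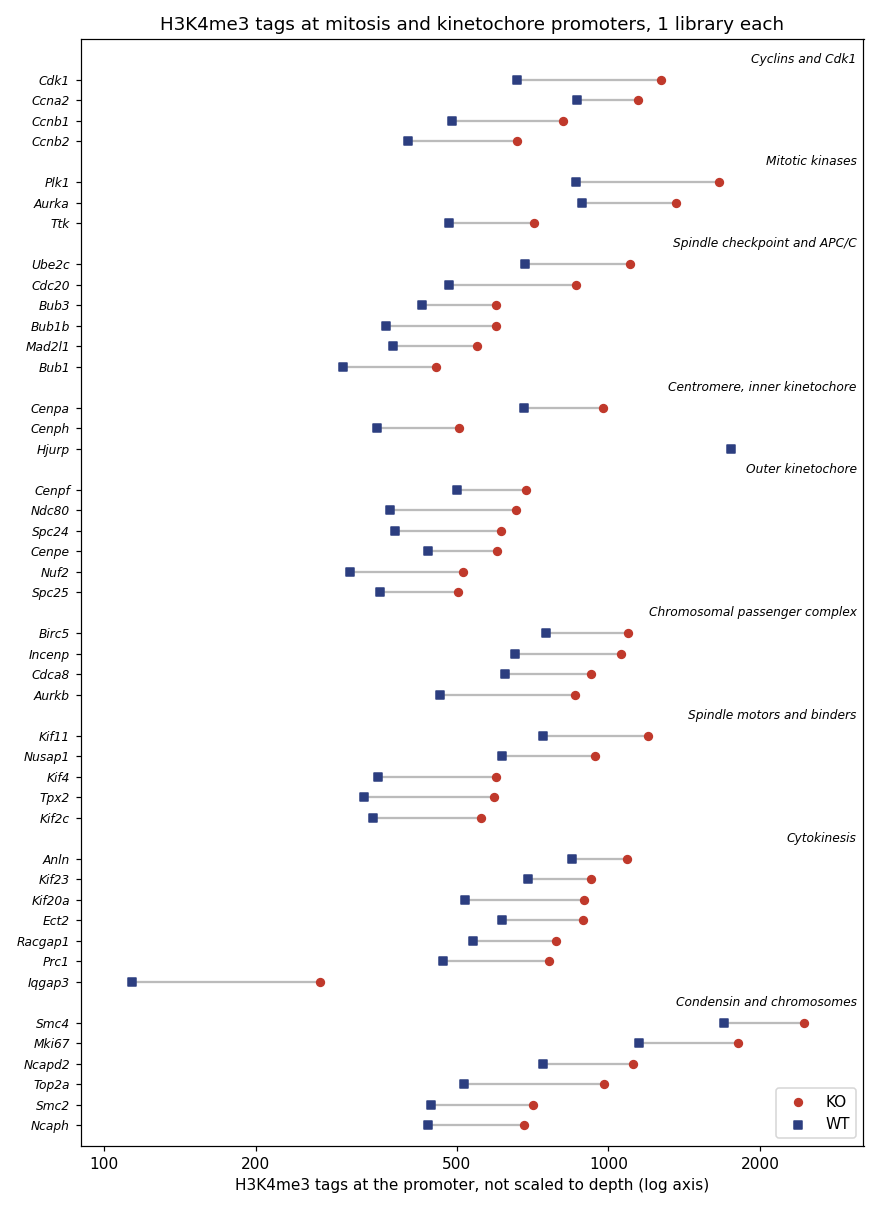
H3K4me3 tags at each of the 44 promoters by functional group, with KO as circles and WT as squares, 1 library each, on a log axis of tags not scaled to depth. The circle lies right of the square for 43 genes, and Hjurp has a WT square alone.

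**Figure D2:**
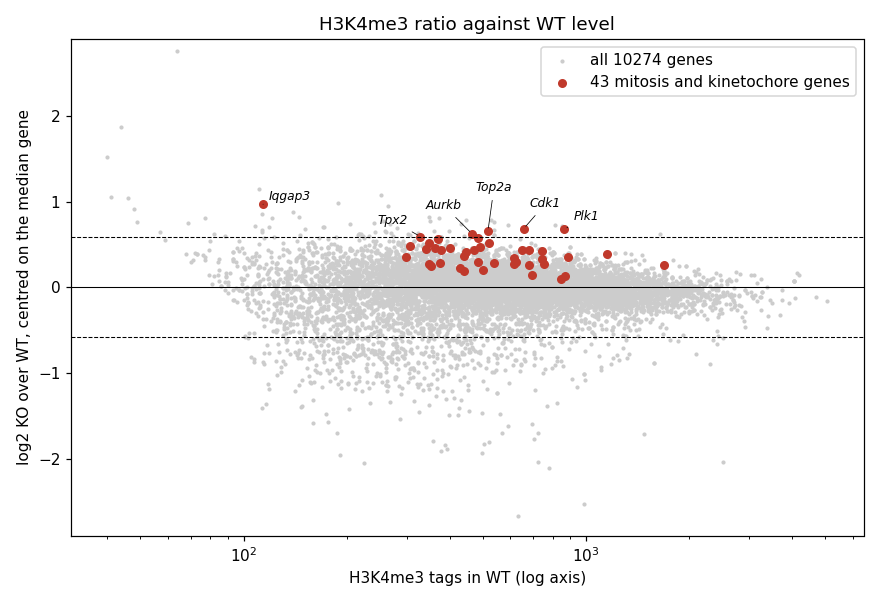
Centred log2 ratio of KO over WT against WT tags (log axis) for 10274 genes in grey and 43 mitosis and kinetochore genes in red, with dashed lines at 1.5-fold. The red points lie between 0.10 and 0.97, all above the line at 0.

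The cyclin and Cdk1 group sets the timing of mitosis. Cdk1, the kinase that drives entry into mitosis, carried 1271 tags in KO and 658 in WT, a centred ratio of 0.69 (counting interval 0.55 to 0.82). Its B-type cyclin partners were also higher in KO: Ccnb1 had 814 tags in KO and 490 in WT (0.47), and Ccnb2 had 660 and 400 (0.46). Ccna2, the cyclin of S and G2 phase, had 1144 tags in KO and 866 in WT, and its ratio of 0.14 (interval 0.01 to 0.27) was the lowest of the group. The intervals of Cdk1 and Ccna2 did not overlap.

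Among the mitotic kinases, Plk1, which acts in centrosome maturation, mitotic entry and cytokinesis, had 1659 tags in KO and 864 in WT. Its ratio was 0.68 (interval 0.56 to 0.80), past 1.5-fold. Ttk, the checkpoint kinase also called Mps1, had 711 tags in KO and 483 in WT (0.29, interval 0.13 to 0.46). Aurka, the spindle pole kinase, had 1360 tags in KO and 888 in WT (0.35), on a region that also lies within 1 kb of a start of Cstf1.

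The spindle checkpoint holds back the anaphase-promoting complex (APC/C) until all chromosomes are attached. Cdc20, the activator of the APC/C that the checkpoint restrains, stood highest in this group, with 864 tags in KO and 483 in WT (0.58, interval 0.41 to 0.74), just under 1.5-fold. Ube2c, the ubiquitin-conjugating enzyme of the APC/C, had 1104 tags in KO and 682 in WT (0.43). Bub1b, which encodes the checkpoint protein BubR1, had 599 tags in KO and 363 in WT (0.46). The checkpoint kinase gene Bub1 (456 tags in KO, 298 in WT), Mad2l1, which encodes Mad2 (548 and 375), and Bub3, a partner of Bub1 and BubR1 (600 and 428), had ratios of 0.35, 0.28 and 0.22. The median over these 6 genes was 0.39.

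Of the centromere and inner kinetochore genes, Cenpa and Cenph were higher in KO and Hjurp had no ratio. Cenpa encodes the histone H3 variant that defines centromeres, and it had 976 tags in KO and 681 in WT (0.26, interval 0.11 to 0.40). Cenph, of the inner kinetochore, had 506 tags in KO and 348 in WT (0.28). Hjurp, which encodes the chaperone that deposits Cenpa, had no peak listed in KO and 1 peak of 1747 tags in WT.

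That WT peak at Hjurp, on chromosome 1 from 88272351 to 88278823 (GRCm38/mm10), is 6473 bp wide and lies within 1 kb of annotated starts of Hjurp and Trpm8. The nearest KO peaks lay 263 kb to the left and 419.6 kb to the right of it. Marking in WT alone was seen for 1295 genes, 11.1% of those marked in 1 or both libraries, with a median of 75 tags, and 0 of the 1295 had more tags than Hjurp. A peak list gives no count where no peak was called, so no ratio is given for Hjurp. The files do not show why no KO peak is listed there, and strain and genotype cannot be told apart. The lowest count of a listed KO peak was 22 tags.

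Outer kinetochore subunits bind spindle microtubules. The 4 genes of the Ndc80 complex, the main microtubule coupler, were all higher in KO: Ndc80 had 655 tags in KO and 369 in WT (0.56, interval 0.38 to 0.75), and Nuf2 had 515 and 307 (0.48). Spc24 had 612 tags in KO and 377 in WT (0.44), and Spc25 had 504 and 352 (0.25). The large kinetochore proteins stood lower: the kinesin gene Cenpe had 602 tags in KO and 440 in WT (0.19, interval 0.01 to 0.37), and Cenpf had 688 and 500 (0.20, interval 0.03 to 0.37).

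The chromosomal passenger complex corrects faulty attachments and later acts at the cleavage site. Aurkb, its kinase, was past 1.5-fold with 860 tags in KO and 464 in WT (0.63, interval 0.46 to 0.79). The genes of its partners were nearer the median: Incenp, the scaffold, had 1061 tags in KO and 652 in WT (0.44), Cdca8, which encodes Borealin, had 923 and 625 (0.30), and Birc5, which encodes Survivin, had 1095 and 753 (0.28, interval 0.14 to 0.41).

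Spindle motors and microtubule binders formed a narrow group, from 0.35 to 0.59. Tpx2, an activator of Aurora A on the spindle, was highest with 594 tags in KO and 328 in WT (0.59, interval 0.40 to 0.79), past 1.5-fold. The chromokinesin gene Kif4, on the X chromosome, had 600 tags in KO and 349 in WT (0.52). The microtubule depolymerase gene Kif2c had 560 tags in KO and 342 in WT (0.45). Kif11, the motor that separates spindle poles, had 1200 tags in KO and 742 in WT (0.43), and the spindle protein gene Nusap1 had 940 and 616 (0.35, interval 0.20 to 0.50).

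The cytokinesis genes were the most spread out, and held both ends of the whole set. Iqgap3, an IQGAP scaffold protein, had the fewest tags of any member marked in both, 268 in KO and 114 in WT, and the highest ratio, 0.97 (interval 0.65 to 1.30). Anln, which encodes the actin-binding protein anillin of the contractile ring, had 1087 tags in KO and 845 in WT. Its ratio of 0.10 was the lowest, and its interval of -0.03 to 0.23 was the only one of the 43 to span 0.

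Between these ends, Kif20a, a kinesin of the central spindle, had 895 tags in KO and 519 in WT (0.52). Prc1, which bundles antiparallel microtubules, had 764 tags in KO and 470 in WT (0.44). The centralspindlin subunit genes Racgap1 (788 tags in KO, 540 in WT) and Kif23 (922 and 693) had ratios of 0.28 and 0.15. Ect2, the exchange factor that centralspindlin recruits to activate RhoA, had 892 tags in KO and 616 in WT (0.27).

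Condensin compacts mitotic chromosomes. Its core ATPase genes were both higher in KO: Smc2 had 710 tags in KO and 445 in WT (0.41), and Smc4 had 2434 and 1691 (0.26, interval 0.17 to 0.35), the most of any member in KO. The condensin I subunit genes Ncaph (681 tags in KO, 440 in WT) and Ncapd2 (1118 and 742) had ratios of 0.37 and 0.33. Top2a, the topoisomerase that untangles sister chromatids, stood above all of these with 979 tags in KO and 517 in WT (0.66, interval 0.50 to 0.81). Mki67, which encodes the proliferation marker Ki-67 that coats mitotic chromosomes, had 1809 tags in KO and 1151 in WT, and its ratio of 0.39 (interval 0.28 to 0.50) was the median of the whole set.

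The regions of 10 members also lie within 1 kb of an annotated start of another protein-coding gene, so their tags cannot be assigned to 1 gene. They are Aurka with Cstf1, Hjurp with Trpm8, Ndc80 with Spdya, Cdca8 with 9930104L06Rik, Nusap1 with Oip5, Kif4 with Pdzd11, Kif20a with Brd8, Anln with 9530077C05Rik, Smc4 with Ift80 and Ncapd2 with Mrpl51. Oip5 itself acts in loading of Cenpa. The 34 members marked in both and without such a partner had a median ratio of 0.42, all 34 above 0.

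The marked regions hardly differed in width between the genotypes. Peaks at the 43 members spanned 1471 to 4677 bp in KO and 1328 to 4857 bp in WT, with a median ratio of widths of 0.98, and 0.97 over all genes. All 43 had 1 peak in each library. The summit, the position of most tags, lay a median of 230 bp after the start in KO and 226 bp in WT, and was downstream of the start at 40 members in KO and 39 in WT. At 39 of the 43 the summits of both libraries were at most 100 bp apart.

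Taken per kb of peak, the members had a median density of 332.8 tags per kb in KO and 207 in WT, against 301 and 234 for all genes. The centred ratio per kb was above 0 for all 43 members, against 50.1% of all genes, with a median of 0.36 and a range of 0.09 to 0.76. Past 1.5-fold per kb were 5 members, against 0.788% of all genes, and 0 were below it downwards, against 3.83%. They were Iqgap3 (0.76), Top2a (0.76), Ndc80 (0.69), Plk1 (0.67) and Cdc20 (0.61). Iqgap3, Top2a and Plk1 passed on both measures, while Cdk1 (0.56), Aurkb (0.45) and Tpx2 (0.43) passed by tags alone.

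Width shifted some genes within the set. Mad2l1 stood at 0.28 by tags and 0.50 per kb, since its KO peak was narrower (2389 bp in KO, 2889 bp in WT). Bub1b went the other way, with 0.46 by tags and 0.23 per kb (2205 bp in KO, 1961 bp in WT). The lowest values per kb were those of Bub3 and Cenpe, 0.09 each.

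**Figure D3:**
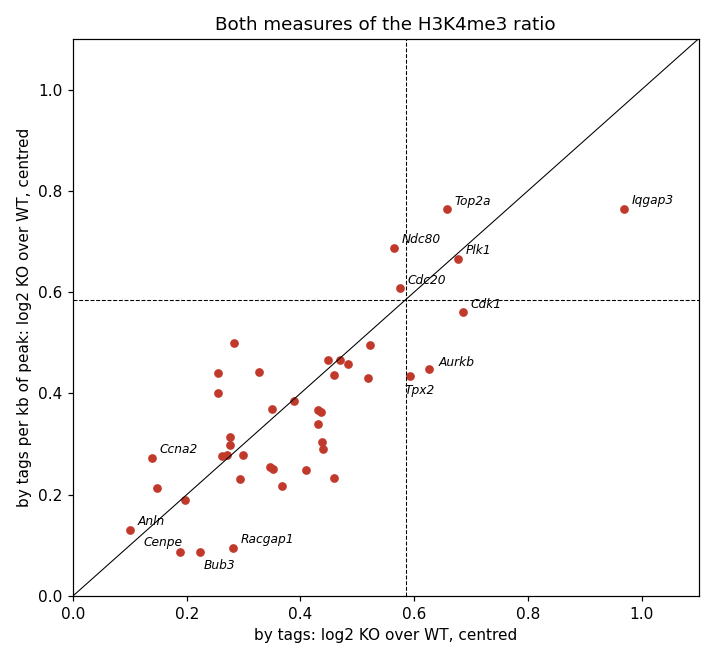
Centred log2 ratio of KO over WT by tags (x axis) and by tags per kb of peak (y axis) for the 43 genes marked in both libraries, with a line of equal values and dashed lines at 1.5-fold. All points lie above 0 on both axes, and Iqgap3, Top2a and Plk1 lie past both dashed lines.

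The nearest marked promoters on either side of each member, 88 regions in all, were compared with it. They lay from 5.34 kb (Elovl1, beside Cdc20) to 5073 kb (Tbl1xr1, beside Ect2) away, so not all are local. These promoters also include cell cycle genes, among them Cdc23, Tk1 and the members Ccnb1 and Cenph, which flank each other. Their median centred ratio was -0.03, and 39 of the 88 lay above 0. Past 1.5-fold upwards were 0 of the 88, against 0.74% of all genes, and 2 were past it downwards, against 4.78%, which were the promoter of A930033H14Rik and Rhobtb1 beside Cdk1 (-1.21) and that of Chst15 beside Bub3 (-1.17). Their highest value, 0.47, belonged to Ccnb1, which flanks Cenph. For 39 of 43 members the ratio was above that of both flanking promoters, the exceptions being Aurka, Birc5, Cenph and Ccna2. The same count was not made over all genes, so it has no background share here.

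Some of those flanks show the contrast in tags. On either side of Iqgap3, Naxe had 364 tags in KO and 339 in WT (-0.16), and Mef2d had 1568 and 1523 (-0.22). Beside Plk1, the shared promoter of Dctn5 and Palb2 had 782 tags in KO and 644 in WT (0.02), and Prkcb had 923 and 856 (-0.15). Beside Top2a, Rara had 2530 tags in KO and 2665 in WT (-0.34), and Smarce1 had 1212 and 1004 (0.01). The flank of Birc5 that stood above it, with 1035 tags in KO and 647 in WT (0.41), was the promoter of the thymidine kinase gene Tk1 and of Afmid. No H3K4me3 region lay inside a member gene away from its start, except 1 at Ncapd2 that is the promoter of the adjacent Gapdh.

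**Figure D4:**
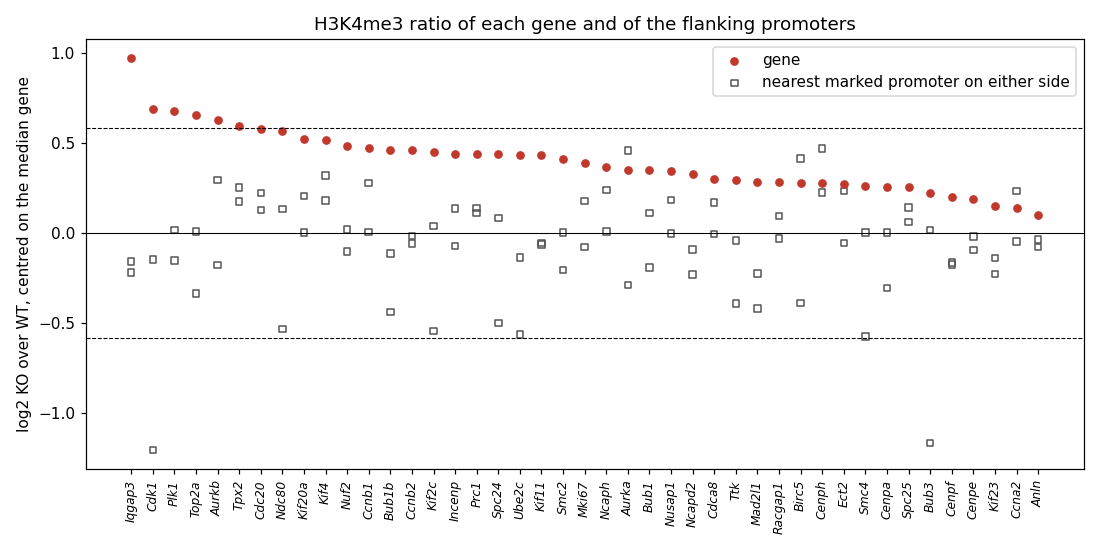
Centred log2 ratio of KO over WT for the 43 genes marked in both (filled circles, in falling order) and for the nearest marked promoter on either side of each (open squares), with dashed lines at 1.5-fold. The circle lies above both squares for 39 genes, and none of the squares lies above the upper dashed line.

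The wider pathway was described with 83 other mitotic genes, 39 DNA replication genes and 20 housekeeping genes. Of the other mitotic genes 81 of 83 lay above 0, against 50.2% of all genes, with a median of 0.27. Past 1.5-fold upwards were 6, against 0.74% of all genes, and 0 were past it downwards, against 4.78%. Oip5, in this list, has the same region and tags as the member Nusap1. Cenpm, of the inner kinetochore, was highest with 488 tags in KO and 241 in WT (0.75), followed by the Cdk1-activating phosphatase gene Cdc25c with 501 and 269 (0.63) and the spindle gene Dlgap5 with 402 and 217 (0.63). The lowest were the cohesin gene Rad21 with 1342 tags in KO and 1179 in WT (-0.08), the kinetochore gene Zwint with 367 and 313 (-0.03) and Cenpt with 1175 and 974 (0.01). Per kb of peak 71 of the 83 were above 0, against 50.1% of all genes, with a median of 0.21. Past 1.5-fold per kb were 2, against 0.788% of all genes.

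The replication genes had a similar position, with 38 of 39 above 0, a median of 0.29 and 7 past 1.5-fold. Of all genes 50.2% were above 0 and 0.74% past 1.5-fold upwards. Per kb of peak the replication median was 0.21, with 36 of 39 above 0 and 3 past 1.5-fold, against 50.1% and 0.788% of all genes. The primase gene Prim1 was highest with 308 tags in KO and 145 in WT (0.82), then the helicase gene Mcm2 with 526 and 256 (0.78) and the ribonucleotide reductase gene Rrm2 with 1612 and 813 (0.72). Pole, of the leading-strand polymerase, was lowest with 687 tags in KO and 622 in WT (-0.12), before Dbf4 with 1301 and 1048 (0.05) and Rfc5 with 600 and 483 (0.05). Housekeeping genes had a median of 0.10, with 14 of 20 above 0 and 0 past 1.5-fold. Per kb of peak the housekeeping median was 0.19, with 13 of 20 above 0, near the 0.21 of the other mitotic and replication genes, and that of the mitosis and kinetochore genes was 0.36. Of the 76 genes past 1.5-fold upwards among all 10274, 19 came from the 166 genes of the mitosis and kinetochore set, the other mitotic genes and the replication genes. No test between these lists was made.

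**Figure D5:**
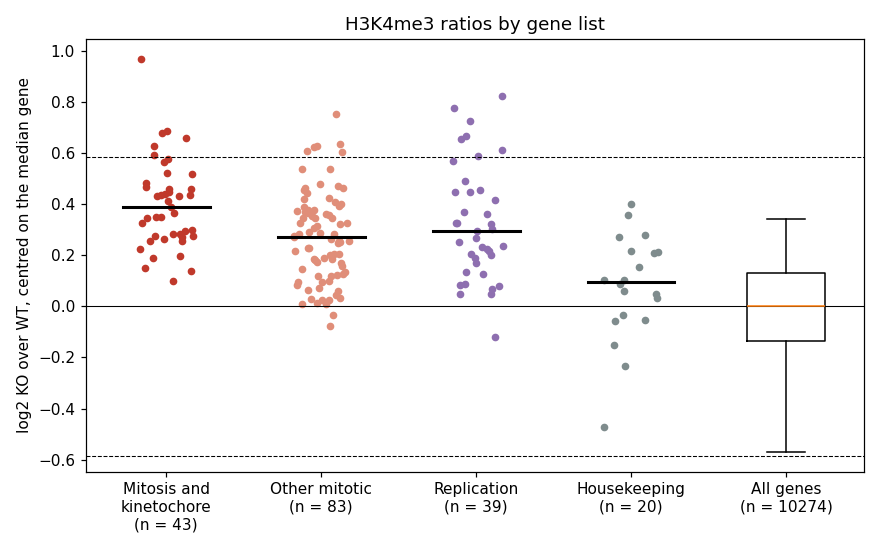
Centred log2 ratios of KO over WT for the genes of each list (points, black bars at medians) and for all 10274 genes (box at the quartiles, whiskers at the 5th and 95th percentiles), with dashed lines at 1.5-fold. The medians are 0.39, 0.27, 0.29 and 0.10 for the lists, and no mitosis and kinetochore gene lies under 0.

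Promoter elements and ratios were also set side by side. The 24 members with both a CHR and a CCAAT box and a mark in both libraries had a median ratio of 0.37, and the 5 with neither (Nuf2, Nusap1, Ncaph, Mad2l1 and Birc5) had a median of 0.35. The median was 0.51 for the 4 with a CHR alone (Anln, Iqgap3, Kif2c and Ndc80) and 0.28 for the 3 with a CCAAT box alone (Ccnb1, Cenpe and Cenph). For Kif2c the element and the ratio belong to different annotated starts. Outside the 3 cell cycle lists, 685 marked genes with both elements had a median of 0.05, with 1.31% past 1.5-fold. The 666 with a CHR alone had a median of 0.03, with 0.30% past it, and the 2959 with a CCAAT box alone 0.01, with 0.575% past it. The 4070 with neither had a median of -0.01, with 0.516% past it.

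No Tcf1 antibody peak lay at a member's promoter, and those within 50 kb of a member are given with the share of all genes that had one. A peak called in WT alone lay in or within 50 kb of 1 member (2.27%), against 3.87% of all genes. It lay 16.8 kb beyond Anln, on chromosome 9 from 22314143 to 22314443, with 17 tags, a score of 51.3 and a false discovery rate (FDR) of 27.9%. Peaks called in KO alone, in cells that lack Tcf1, lay near 9 members (20.5%), against 20.2% of all genes. The FDR of these KO peaks was 72.9% to 100%. A peak called in both genotypes lay inside Cenpe, 1 member of 44, against 0.576% of all genes. It had 22 tags and an FDR of 100% in KO, and 20 tags and an FDR of 17% in WT. Its summit in KO lay 43.6 kb from the Cenpe start. The peak nearest to a start was one in KO, 16.6 kb from that of Ccna2, with 11 tags and an FDR of 81.9%. Score and FDR are the peak caller's values, deposited by the authors.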

How the data were processed

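The 4 deposited peak lists, 1 per antibody library, were used. Reads had 100 bases. Bowtie2 2.1.0, MACS 1.4 and the builds GRCm38, mm10 and GRCh37 are named, without roles, per the submitters' processing notes. Positions were read as GRCm38/mm10, as in the RefSeq gene table used (GRCm38.p6). Peak calling settings and the control track are not given in the sources used here. Per the file headers, the lists hold the count of tags in each peak, not scaled to depth, a score of 10 times the negative log10 of the p-value, the fold enrichment ratio over the peak caller's background, and the FDR in percent. Score and FDR are the authors' deposited values. The deposited fold enrichment ratio was not used for the ratios above, and it runs the other way. Uncentred, it was lower in KO than in WT at every member marked in both, except Kif4 and Kif20a. It was 19.5 in KO and 40.39 in WT at Plk1, and 32.97 and 29 at Kif4. Its direction over all genes was not examined, and why it differs from the tags was not tested.

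Rows were reduced to distinct peaks and starts converted to count from 1. Overlapping H3K4me3 peaks of KO and WT were merged into 14113 regions, and each library's tags were summed per region. Starts of genes came from the RefSeq promoter table (37 of 44 members), the 5′ end of the RefSeq gene, and the Ensembl features in the lists. All 3 sources were pooled after the data were seen. A strand was known for 19999 of 21883 protein-coding genes, the other 1884 were left out. Log2 ratios of KO over WT were centred on their median over all genes marked in both, and counts used genes reaching 100 tags in either library. Exact binomial intervals cover counting error only, and reads without molecular identifiers are not independent molecules. The members and gene lists were chosen with earlier results of these data known.

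Genes named with values were all members, and of the other mitotic and replication lists the 3 highest and 3 lowest ratios. Flanking promoters were examined after the data were seen, and those named were chosen after their values were seen. The method was tested on simulated data, and no result of that test is used here. Alternatives were peaks of each library taken separately, windows of 0 and 2500 bp, tags per kb, other centrings, other minimum tags, scores of at least 100, leaving out shared regions, autosomes alone, other sources of starts, and Tcf1 distances of 10 and 100 kb. Tables were handled with pandas 2.3.3 and numpy 2.4.6, intervals came from scipy 1.17.1, and figures from matplotlib 3.10.9, under Python 3.11.15.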

Additional observations from a re-analysis of the deposited data

How the results depend on the processing

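The median ratio of the members stayed between 0.29 and 0.47 under the 14 alternatives to it, and the lowest came from centring on the housekeeping list (added, like the 2 other sources of starts, with the data in view). Under each of the 14, all members that could be counted were above 0, and 0 were past 1.5-fold downwards. Of all genes, 30.5% (centred on the housekeeping list) to 66.8% (centred on total peak tags) were above 0. Past 1.5-fold downwards were 0.879% to 6.38% of all genes. The number past 1.5-fold upwards was 6, against 0.74% of all genes, and 10 when centred on total peak tags, against 1.22%. It was 3 of 21 members with at least 500 tags in both libraries (all 21 above 0), against 0.224%. Centred on the housekeeping list it was 2, against 0.38%. Under the other 11 it was 4 to 6, against 0.526% to 0.788% of all genes. With a lower limit of 0.32 on the log2 scale, 27 members were past it upwards, against 5.89%. For Tcf1 peaks called in WT alone the count of 1 of 44 members near a peak became 0 at 10 kb, against 1.81% of all genes. It was 2 at 100 kb (all genes 6.51%) and 0 with scores of at least 100 (all genes 0.315%). For those called in KO alone 9 of 44 became 1 at 10 kb, against 8.975% of all genes. That count was 14 at 100 kb (all genes 31.8%) and 1 with scores of at least 100 (all genes 0.818%). No paired analysis was possible because each group holds 1 library. Depth limits Iqgap3 most, with 114 tags in WT.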
